A study of Mus musculus with 8 samples.

Results

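Nodal is a secreted ligand of the TGF-beta family, and the 9 genes described here encode the ligand itself (Nodal), secreted inhibitors (Lefty1, Lefty2 and Fst), the coreceptor Tdgf1, the receptors Acvr1b and Acvr2b, and the intracellular inhibitors Smad7 and Skil. They were taken by symbol from a fixed list, and each was found as 1 of the 38991 genes measured. The rule uses no measured value, but the list was chosen with earlier results of these data known. All 9 passed the filter of at least 1 FPKM in at least 2 cultures, as did 12927 genes in total. FPKM, fragments per kilobase of transcript, is scaled to transcript length and library size.

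The cells were Rex1GFPd2 (RGd2) mouse embryonic stem cells (ESCs) of strain 129, in which a short-lived GFP marks expression from Rex1 (Zfp42). All cultures were expanded in 2i for 6 passages and then kept in N2B27 medium for 5 passages, to passage 11, with replating every 3 days at 15000 cells/cm2. The 4 conditions, with 2 cultures each, were 2i+LIF (CH, PD and LIF), 2i (CH and PD without LIF), LIF+PD (without CH) and CH+LIF (without PD). LIF is a cytokine that acts through STAT3, CH (CHIR99021, 3 µM) inhibits GSK3 and thereby raises beta-catenin activity, and PD (PD0325901, 1 µM) inhibits MEK, the kinase upstream of ERK. The cells are a single reporter line, and nothing states whether the replicates of a condition came from separately derived cultures, so that the p-values measure the spread between these samples, which may be technical.

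Nodal signals through a complex of type I and type II activin receptors, to which it gains access with the GPI-anchored coreceptor Tdgf1 (Cripto), and the receptors phosphorylate SMAD2 and SMAD3, which enter the nucleus with SMAD4 and act with FOXH1. Nodal, Lefty1, Lefty2, Smad7 and Skil are known targets of the pathway, and the Lefty proteins, SMAD7 and SnoN (encoded by Skil) restrain it in turn. ESCs produce Nodal themselves, whereas primed epiblast stem cells are maintained with activin, a ligand of the same receptors that follistatin, the product of Fst, traps.

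The depth of the libraries was known only relative to replicate 1 of 2i+LIF and ranged from 0.499 (replicate 1 of 2i) to 1.18. Markers of ESCs were abundant in all cultures, with a summed level of 4157 to 6002 FPKM over 8 genes. Of 9 primitive endoderm markers, 4 reached 1 FPKM in at least 2 cultures. The sum of the 9 was 57.2 to 66.6 FPKM in LIF+PD against 8.05 to 25.4 FPKM elsewhere, most of it in LIF+PD Col4a1. Lama1 was not higher in LIF+PD (12.31 and 18.47 FPKM) than in 2i+LIF (17.41 and 21.95 FPKM). Gata4 and Dab2 were highest in LIF+PD, at 1.933 FPKM or less, while Gata6, Sox17 and Pdgfra stayed below 1 FPKM in all cultures. The sum of 6 primitive streak and mesendoderm markers was 28.5 to 47.5 FPKM in CH+LIF against 8.56 to 23.7 FPKM elsewhere, most of it in CH+LIF T and Eomes. Mixl1, Mesp1 and Foxa2 were below 1 FPKM in all cultures. Gsc went the other way, at 0.654 and 0.499 FPKM in CH+LIF and 1.53 and 0.175 FPKM in 2i. It was at 7.71 and 6.26 FPKM in 2i+LIF and 6.77 and 6.10 FPKM in LIF+PD. The sum of 4 markers of the later epiblast was 96.2 to 104 FPKM in LIF+PD against 35.7 to 84.0 FPKM elsewhere. Its members differed. Otx2 was at 50.34 and 49.22 FPKM in LIF+PD and at most 16.38 FPKM elsewhere, and Pou3f1 was also highest in LIF+PD. Dnmt3b was lower in LIF+PD (41.87 and 50.86 FPKM) than in CH+LIF (68.79 and 65.06 FPKM), and Fgf5 stayed below 1 FPKM. The sum of 6 fibroblast markers was at most 4.19 FPKM, and Col3a1, Dcn and Lum were listed at 0 throughout. The part of these differences in the values below was not tested. RNA was taken from whole cultures, so that fewer cells expressing a gene and less RNA per cell cannot be told apart.

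Nodal differed between the conditions with little spread between replicates. Its level was 39.86 and 35.33 FPKM in 2i+LIF, 68.53 and 60.27 FPKM in 2i, 52.28 and 48.94 FPKM in LIF+PD, and 14.73 and 18.02 FPKM in CH+LIF. No conditions overlapped, and the order was 2i, LIF+PD, 2i+LIF and CH+LIF. Relative to 2i+LIF (37.6 ± 3.21 FPKM, SD, n = 2), Nodal rose 1.71-fold without LIF (64.4 ± 5.84 FPKM), by 0.76 on the scale of log2(FPKM + 1) (SE 0.12, limma adjusted p = 0.00682). Without PD it fell by 1.16 (SE 0.12, adjusted p = 0.00148), and its level was 2.30-fold lower. Without CH it was higher by 0.42 (SE 0.12, adjusted p = 0.0459), a call that was lost without either replicate of 2i+LIF (adjusted p = 0.0861 and 0.201), of LIF+PD (0.180 and 0.110) or of 2i (0.0513 and 0.0512), and under 10 of 18 alternatives in all. Between the neighbours 2i and LIF+PD, whose cultures did not overlap, the difference missed the threshold (-0.34, SE 0.12, adjusted p = 0.0874). CH+LIF had the lowest level, below 2i by 3.93-fold (-1.92, SE 0.12, adjusted p = 0.000156) and below LIF+PD by 3.09-fold (-1.58, SE 0.12, adjusted p = 0.000225).

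The gene lies on the forward strand at chr10:61417972-61425338 (mm10), and the 250 bases in front of it are shown because Nodal, the ligand among the 9 genes, was called in 5 of the 6 comparisons. Letters of TCF/LEF, SMAD, FOXH1 and STAT motifs, the factors downstream of CH, Nodal and LIF, were searched on both strands in the RefSeq promoters of GRCm38.p6, where 4 of the 9 genes were matched (Nodal, Tdgf1, Acvr1b and Acvr2b) and Lefty1, Lefty2, Smad7, Skil and Fst were not. The letters were CTTTGA (TCF/LEF), CAGAC (SMAD), TGTNNATT (FOXH1) and TTCNNNGAA (STAT), which occurred in 13.8%, 42.2%, 10.9% and 7.02% of 32851 promoter windows of the same length. The Nodal window, chr10:61417722-61417971 on the forward strand, held none of these letters and is therefore without capitals. Sequence outside the 250-base windows was not searched.
Nodal: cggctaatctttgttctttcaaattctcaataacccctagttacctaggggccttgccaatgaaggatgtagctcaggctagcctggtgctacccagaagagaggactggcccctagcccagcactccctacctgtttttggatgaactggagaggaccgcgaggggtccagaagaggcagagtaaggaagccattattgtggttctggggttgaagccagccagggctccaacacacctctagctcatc

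**Figure D1:**
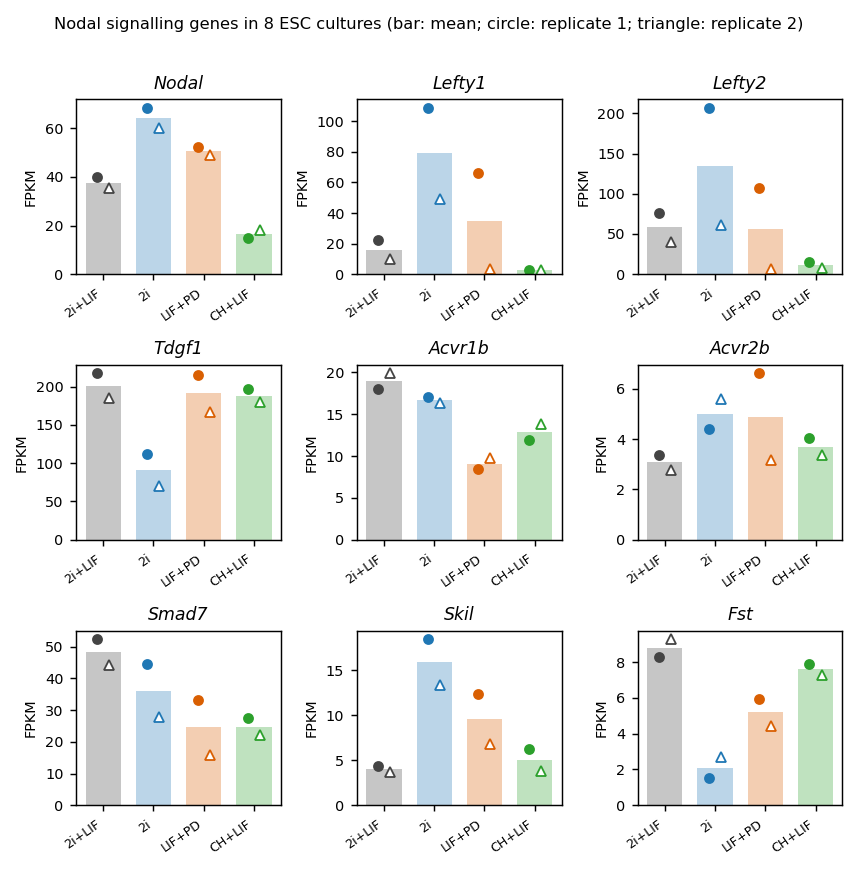
FPKM (linear axis from 0, a separate scale for each gene) of the 9 genes in the 4 conditions, with a bar for the mean, a circle for replicate 1 and a triangle for replicate 2. The cultures of Nodal lie close together at a different level in each condition, whereas the LIF+PD cultures of Lefty1 (66.44 and 3.08 FPKM) and Lefty2 (107.5 and 6.00 FPKM) lie far apart.

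The genes for the secreted inhibitors of Nodal had the widest range of the 9. Lefty1 was at 22.35 and 9.69 FPKM in 2i+LIF, 109.0 and 49.23 FPKM in 2i, 66.44 and 3.08 FPKM in LIF+PD, and 2.98 and 2.96 FPKM in CH+LIF. Both cultures of 2i lay above those of 2i+LIF, both cultures of CH+LIF below all others, and the cultures of LIF+PD overlapped with 2i and 2i+LIF. Replicate 2 of LIF+PD was barely above CH+LIF, and its deposited bounds (2.01 to 4.18 FPKM) held both CH+LIF values. Against 2i, Lefty1 was 26.6-fold lower in CH+LIF (2.97 ± 0.0124 against 79.1 ± 42.3 FPKM, SD, n = 2; -4.23, SE 1.16, limma adjusted p = 0.0377). This call was lost when any 1 culture of 2i+LIF (adjusted p = 0.0568 for each), 2i (0.157 and 0.0769) or CH+LIF (0.134 and 0.124) was left out. It was kept without either culture of LIF+PD (adjusted p = 0.00334 and 0.00331).

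Against 2i+LIF (16.0 ± 8.95 FPKM), Lefty1 was 4.94-fold higher in 2i by mean FPKM (2.23, SE 1.16, adjusted p = 0.225) and 5.39-fold lower in CH+LIF (-1.99, SE 1.16, adjusted p = 0.249), and neither difference passed the threshold. The spread in this fit is shared by all 8 cultures, and the LIF+PD cultures are the farthest apart. In a fit without LIF+PD, chosen after the values had been seen, the adjusted p was 0.0269 for 2i against 2i+LIF and 0.0314 for CH+LIF against 2i+LIF. In LIF+PD itself the direction hung on 1 culture, since the difference from 2i+LIF was -1.95 without replicate 1 (adjusted p = 0.0768) and 2.09 without replicate 2 (adjusted p = 0.0620). The value from both was 0.07 (SE 1.16, adjusted p = 0.976).

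Lefty2, which lies beside Lefty1 at chr1:180893108-180899103 (Lefty1 at chr1:180935022-180938400, mm10, both on the forward strand), ran close to it. Its level was 76.52 and 39.60 FPKM in 2i+LIF, 207.2 and 61.46 FPKM in 2i, 107.5 and 6.00 FPKM in LIF+PD, and 15.26 and 7.21 FPKM in CH+LIF. The cultures of 2i and 2i+LIF overlapped, and both cultures of CH+LIF were below those of 2i+LIF and 2i but not below replicate 2 of LIF+PD. None of the 6 comparisons of Lefty2 passed, including CH+LIF against 2i+LIF (-2.28, SE 1.20, limma adjusted p = 0.208) and CH+LIF against 2i (-3.30, SE 1.20, adjusted p = 0.0876), the latter being called (adjusted p = 0.0184) in the fit without LIF+PD. Without replicate 1 of LIF+PD, the difference of that condition from 2i+LIF was -3.00 (adjusted p = 0.0560), and without replicate 2 it was 0.95 (adjusted p = 0.456). LIF+PD also fell below 2i without its replicate 1 (adjusted p = 0.00757 for Lefty1 and 0.0222 for Lefty2), and lay above CH+LIF without its replicate 2 (0.00709 and 0.0372).

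The Lefty genes are close copies. Of the 50-base windows of the Lefty1 transcripts, 306 of 1707 (17.9%) also occur in Lefty2, so that the split of reads between them is uncertain. With their FPKM summed, CH+LIF against 2i differed by -3.68 and was not called (adjusted p = 0.0665).

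In LIF+PD, replicate 1 was above replicate 2 by 21.6-fold for Lefty1 and by 17.9-fold for Lefty2. On the log2 scale these gaps were 4.05 and 3.95, compared with a median absolute gap of 0.139 and a 99th percentile of 1.27 over the 12927 genes in that condition. Ranked by the gap, they were the 24th and 26th of all 12927 genes, and the 3rd and 4th of the 11666 protein-coding genes, after Tnpo1, listed at 0 in replicate 1, and Alox5ap. Nodal, by contrast, differed by 1.07-fold between the same cultures.

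The intracellular inhibitors shared the direction. In LIF+PD, replicate 1 exceeded replicate 2 by 2.10-fold for Smad7 and 1.82-fold for Skil, each with a gap below the 99th percentile. Of the receptors, Acvr2b was 2.09-fold higher in replicate 1, and Acvr1b in replicate 1 was 0.867 times its level in replicate 2. Across all 4 conditions, replicate 1 was the higher culture for 5 of the 9 genes (Lefty1, Lefty2, Tdgf1, Smad7 and Skil), compared with 1375 (10.6%) of all genes tested. For Lefty1 in CH+LIF the gap was only 0.01 (2.978 and 2.96 FPKM). Lefty1 and Lefty2 are close copies that may share reads, so that they are not independent entries in this count. What differed between the cultures was not tested.

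**Figure D2:**
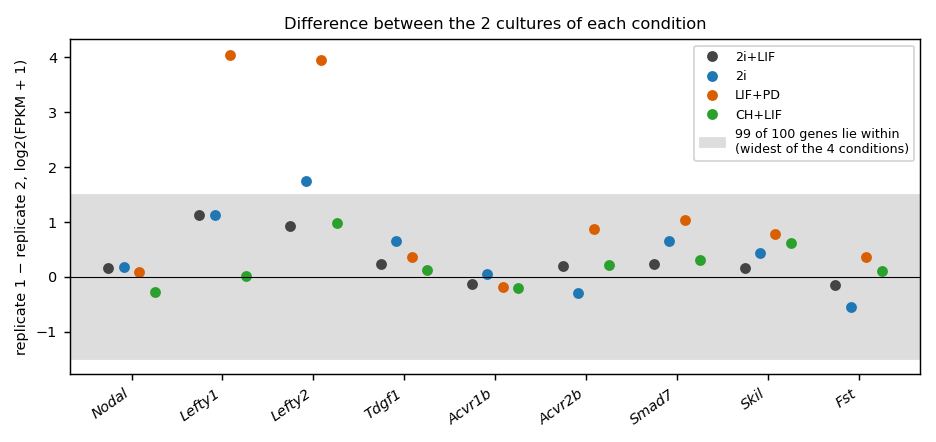
Difference between replicate 1 and replicate 2 in log2(FPKM + 1) for the 9 genes, with 1 point for each condition. The grey band spans plus and minus 1.49, the widest 99th percentile of the absolute gap over all genes tested (2i), and LIF+PD gives the points of Lefty1 (4.05) and Lefty2 (3.95) far above it.

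Fst, which encodes the activin trap follistatin, was lowest in 2i, where Nodal was highest. It was at 8.28 and 9.30 FPKM in 2i+LIF, 7.92 and 7.28 FPKM in CH+LIF, 5.97 and 4.44 FPKM in LIF+PD, and 1.51 and 2.68 FPKM in 2i. The 2i cultures were the lowest and overlapped with no other. Without LIF, Fst fell by 1.69 on the log2 scale (SE 0.21, limma adjusted p = 0.00248), to a level 4.20-fold lower. Against 2i it was higher in CH+LIF (3.63-fold, 1.5, SE 0.21, adjusted p = 0.00341) and in LIF+PD (2.49-fold, 1.02, SE 0.21, adjusted p = 0.0127, but 0.0746 without replicate 1 of LIF+PD). The differences between the neighbours CH+LIF and 2i+LIF (-0.19, SE 0.21, adjusted p = 0.557) and between CH+LIF and LIF+PD (0.48, SE 0.21, adjusted p = 0.128) missed the threshold. LIF+PD against 2i+LIF missed the threshold (-0.67, SE 0.21, adjusted p = 0.0571) and passed it without replicate 1 or 2 of 2i (adjusted p = 0.0284 and 0.0289). An antisense gene (Gm47040) overlaps Fst, and if strand was not used for FPKM, their reads cannot be told apart.

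The coreceptor gene Tdgf1 was the most abundant of the 9 in all cultures but replicate 1 of 2i, in which Lefty2 was higher. It was at 217.5 and 185.4 FPKM in 2i+LIF, 215.5 and 166.6 FPKM in LIF+PD, 196.4 and 180.3 FPKM in CH+LIF, and 112.1 and 70.39 FPKM in 2i. The 3 conditions with LIF overlapped, and the 2i cultures lay below all of them. Without LIF, Tdgf1 fell by 1.17 (SE 0.22, limma adjusted p = 0.0125), which was 2.21-fold lower in mean FPKM, and the call was lost without replicate 1 of 2i+LIF (adjusted p = 0.0762). Against 2i it was 2.09-fold higher in LIF+PD (1.08, SE 0.22, adjusted p = 0.0125, but 0.0737 without replicate 1 of LIF+PD) and 2.06-fold higher in CH+LIF (1.07, SE 0.22, adjusted p = 0.0148, but 0.0790 and 0.0550 without 1 or the other culture of CH+LIF). Among the conditions with LIF the differences were at most 0.09 in size, with adjusted p values from 0.791 to 0.979.

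The deposited FPKM of Tdgf1 lay above its own deposited upper bound in all 8 cultures (217.5 against a bound of 204.1 FPKM in replicate 1 of 2i+LIF), and how the bounds were set is not given in the sources used here. The processed pseudogene Tdgf1-ps1 was listed at 116.4 and 111.3 FPKM in 2i+LIF, 124.2 and 93.11 FPKM in LIF+PD, 94.58 and 99.15 FPKM in CH+LIF, and 71.29 and 38.26 FPKM in 2i. Of its 50-base windows, 50.9% occur in Tdgf1, so that the level of Tdgf1 is uncertain to the extent that reads were shared. Both entries were lowest in 2i.

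The promoter window of Tdgf1 (chr9:110946159-110946408, GRCm38.p6, reverse strand, printed in the direction of the gene, in front of the gene at chr9:110939610-110946158) is shown since it was the single one among the 4 windows with FOXH1 letters. It held TGTNNATT at 2 places, read on the opposite strand, and CAGAC at 1 place, all in capitals and without overlap. The window of Acvr2b held CAGAC at 1 place and that of Acvr1b none of the letters.
Tdgf1: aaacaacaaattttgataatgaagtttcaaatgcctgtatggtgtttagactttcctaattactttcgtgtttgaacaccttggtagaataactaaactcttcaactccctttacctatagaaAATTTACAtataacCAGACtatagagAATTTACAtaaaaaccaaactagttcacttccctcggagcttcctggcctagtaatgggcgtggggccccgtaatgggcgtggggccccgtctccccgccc

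The receptor genes were at 19.90 FPKM or less in all cultures. Acvr1b, which encodes the type I receptor ALK4, was at 18.06 and 19.90 FPKM in 2i+LIF, 17.01 and 16.34 FPKM in 2i, 11.89 and 13.88 FPKM in CH+LIF, and 8.43 and 9.73 FPKM in LIF+PD. No conditions overlapped, and the order of the levels was unlike that of Nodal. Without CH, Acvr1b fell by 0.99 (SE 0.12, limma adjusted p = 0.00157), to a level 2.09-fold lower, and it was also lower than in 2i (1.84-fold, -0.81, SE 0.12, adjusted p = 0.00328). Without PD it fell by 0.53 (SE 0.12, adjusted p = 0.0191), a call that was lost under TPM scaling (-0.34, SE 0.15, limma adjusted p = 0.13). It was also lost without either culture of 2i+LIF (-0.59 and -0.46) or replicate 1 of CH+LIF (-0.42). CH+LIF was above LIF+PD by 0.46 (SE 0.12, adjusted p = 0.0257), which was lost without replicate 2 of CH+LIF or replicate 1 of LIF+PD (adjusted p = 0.123 and 0.130). The differences between the neighbours 2i and 2i+LIF (-0.18, SE 0.12, adjusted p = 0.347) and between CH+LIF and 2i (-0.35, SE 0.12, adjusted p = 0.0725) missed the threshold.

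Acvr2b, which encodes an activin type II receptor, was at 3.35 and 2.79 FPKM in 2i+LIF, 4.42 and 5.61 FPKM in 2i, 6.62 and 3.17 FPKM in LIF+PD, and 4.04 and 3.36 FPKM in CH+LIF. The LIF+PD cultures overlapped with those of every other condition. None of its comparisons was called (limma adjusted p from 0.210 to 0.852), and LIF+PD against 2i+LIF (0.47, SE 0.28, adjusted p = 0.257) was called without replicate 2 of LIF+PD (adjusted p = 0.0383). The antisense gene Gm47320 overlaps Acvr2b, and the microRNA gene Mir6962 lies within Acvr1b.

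The intracellular inhibitors had differing orders of levels. Skil, which encodes SnoN, a corepressor that binds SMADs, was at 4.34 and 3.73 FPKM in 2i+LIF, 18.47 and 13.31 FPKM in 2i, 12.35 and 6.77 FPKM in LIF+PD, and 6.28 and 3.76 FPKM in CH+LIF. The 2i cultures were the highest, those of LIF+PD came next, and CH+LIF and 2i+LIF overlapped. Without LIF, Skil rose 3.93-fold (1.73, SE 0.31, limma adjusted p = 0.00961), a call lost without replicate 2 of 2i+LIF (adjusted p = 0.0613) or replicate 1 of 2i (0.0539). Against 2i it was 3.16-fold lower in CH+LIF (-1.5, SE 0.31, adjusted p = 0.0143), which was lost without replicate 1 of 2i (adjusted p = 0.0762) or replicate 2 of CH+LIF (0.0735). LIF+PD against 2i+LIF missed the threshold (1.02, SE 0.31, adjusted p = 0.0504), and was called without replicate 2 of LIF+PD (adjusted p = 0.0319) and, barely, without replicate 2 of CH+LIF. LIF+PD overlapped with neither of its neighbours, but its differences from 2i (-0.71, SE 0.31, adjusted p = 0.139) and CH+LIF (adjusted p = 0.0946) missed the threshold, the latter being called without replicate 2 of LIF+PD (0.0438).

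Smad7 encodes the inhibitory SMAD that blocks the type I receptors. It was at 52.43 and 44.18 FPKM in 2i+LIF, 44.39 and 27.82 FPKM in 2i, 33.31 and 15.84 FPKM in LIF+PD, and 27.57 and 21.99 FPKM in CH+LIF. The 2i+LIF cultures lay above those of LIF+PD and CH+LIF, while 2i overlapped with 2i+LIF and LIF+PD. No comparison was called in the 8-culture fit, with -1.03 (SE 0.35, limma adjusted p = 0.0691) for LIF+PD and -0.94 (SE 0.35, adjusted p = 0.0905) for CH+LIF, each against 2i+LIF. Both differences passed in some alternatives, LIF+PD without its replicate 1 (adjusted p = 0.0216) and CH+LIF without either culture of LIF+PD (0.0367 and 0.0366) or without that condition (0.0368).

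**Figure D3:**
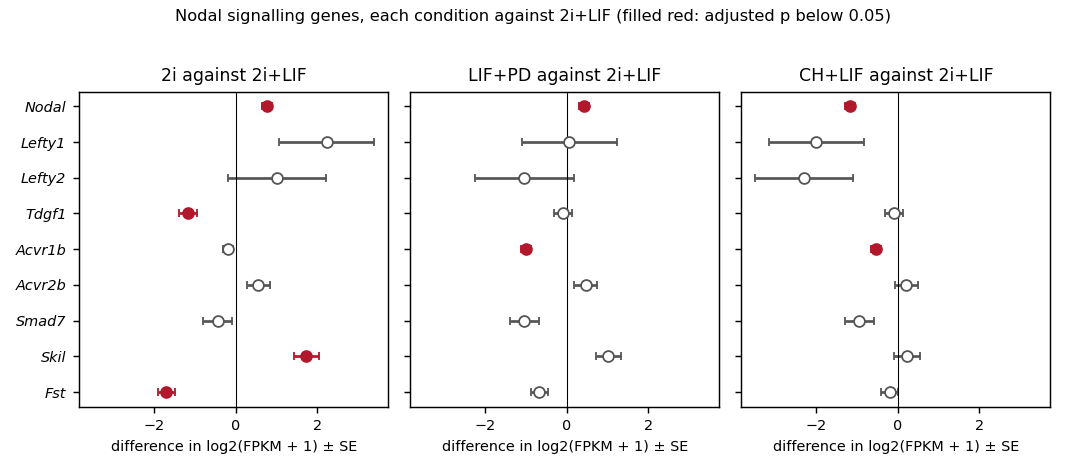
Difference in log2(FPKM + 1) from 2i+LIF, with its SE, of the 9 genes in 2i, LIF+PD and CH+LIF (2 cultures each). Filled red points passed an adjusted p of 0.05 in limma. Nodal is filled in all 3 panels, to the right without LIF (0.76) and without CH (0.42) and to the left without PD (-1.16).

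The comparisons with 2i+LIF share its 2 cultures, so that they are given side by side and not as separate support. Without LIF, 2 of the 9 genes rose (Nodal and Skil) against 9.77% of the genes tested, and 2 fell (Fst and Tdgf1) against 8.86%. The median difference of the 9 genes was 0.56, and that of all genes 0.04. Without CH, 1 gene was higher (Nodal) against 14.8% of genes and 1 was lower (Acvr1b) against 10.4%, with a median of -0.08 (all genes 0.03), so that 7 of 9 did not pass. Without PD, 0 genes were higher against 12.2% and 2 were lower (Nodal and Acvr1b) against 13.3%, with a median of -0.53 (all genes 0.01). The count without CH was 1 in all when either culture of 2i+LIF was left out. The count without PD was 1 without either culture of 2i+LIF or replicate 1 of CH+LIF, and 4 without either or both cultures of LIF+PD. Under TPM scaling, which gives each culture the same sum, the share of higher genes among all calls moved from 58.6% to 74.8% without CH and from 47.9% to 74.0% without PD.

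In the comparisons among the conditions with 1 component removed, LIF+PD against 2i gave 3 calls of 9 (Fst and Tdgf1 higher, Acvr1b lower), compared with 25.1% of all genes in either direction. CH+LIF against 2i gave 5 calls (Fst and Tdgf1 higher, and Nodal, Lefty1 and Skil lower), compared with 23.9%, and 3, 3 and 2 calls without replicate 1 of 2i, replicate 1 of CH+LIF and replicate 2 of CH+LIF. Among all genes called in that comparison, 44.5% were higher, and 64.0% under TPM scaling. CH+LIF against LIF+PD gave 2 calls (Acvr1b higher and Nodal lower), compared with 30.4%, 1 call without replicate 2 of CH+LIF or replicate 1 of LIF+PD, and 5 without replicate 2 of LIF+PD. The median differences were -0.59, -0.5 and -0.27 (all genes 0, -0.03 and -0.01).

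A list of 45 other genes of the Nodal, activin and TGF-beta pathway was described in the same fit. Of these, 33 passed the filter and 12 did not, among them Cer1, which encodes a further Nodal inhibitor, and Acvr1c, which encodes the type I receptor ALK7, both listed at 0 in all cultures. Without LIF, 8 of 33 rose and 1 fell (median 0.14). Without CH, 9 rose and 4 fell (median 0.15), and without PD 3 rose and 7 fell (median -0.14). Without 1 or the other culture of 2i+LIF, the numbers that rose were 5 and 4 without LIF and 4 and 3 without CH, and the numbers that fell were 2 and 2 without CH and 2 and 3 without PD. Without replicate 1 of 2i, 5 rose in that condition, and without either culture of CH+LIF, 3 fell in that condition. Against 2i+LIF, the shares of all genes that passed in each direction are those given above. CH+LIF against 2i gave 3 higher and 15 lower of 33 (median -0.44), compared with 23.9% of all genes in either direction. LIF+PD against 2i gave 5 higher and 6 lower (median -0.11), compared with 25.1%. CH+LIF against LIF+PD gave 5 higher and 7 lower (median -0.18), compared with 30.4%. The alternatives were not summarized for these comparisons of the list. The Cer1 and Acvr1c entries were named after their values had been seen.

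Among the ligands, Gdf3, which encodes a ligand that also uses Tdgf1, was above Nodal in all 8 cultures, at 81.45 and 68.28 FPKM in 2i+LIF, 76.39 and 73.57 FPKM in 2i, 70.51 and 68.28 FPKM in LIF+PD, and 54.29 and 47.10 FPKM in CH+LIF. The CH+LIF cultures were the lowest, and Gdf3 fell without PD by 0.55 (SE 0.11, limma adjusted p = 0.0125, but 0.0672 without replicate 1 of 2i+LIF and 0.0628 without replicate 2 of CH+LIF), whereas it was within 0.10 of 2i+LIF in the other conditions (adjusted p = 0.974 in 2i and 0.533 in LIF+PD).

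Inhbb, which encodes the subunit of activin B, had another order. It was at 0.483 and 0.421 FPKM in 2i+LIF, 0.0880 and 0.0907 FPKM in 2i, 1.89 and 1.92 FPKM in LIF+PD, and 5.26 and 7.54 FPKM in CH+LIF. It was highest in the condition in which Nodal was lowest, with a rise of 2.33 without PD (14.2-fold, SE 0.19, limma adjusted p = 0.000585) and of 1.00 without CH (4.21-fold, SE 0.19, adjusted p = 0.00891, but 0.0515 without replicate 2 of 2i+LIF). Gdf15, a distant member of the family, rose without CH (1.71-fold, 0.67, SE 0.15, adjusted p = 0.0208) and fell without PD (1.94-fold lower, -0.76, SE 0.15, adjusted p = 0.0134), and both calls were lost without either culture of 2i+LIF (adjusted p from 0.0610 to 0.0970), as they were without replicate 2 of LIF+PD (0.111) and replicate 1 of CH+LIF (0.0785), respectively.

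Of the further receptors, Tgfbr3, the TGF-beta coreceptor betaglycan, rose 4.71-fold without LIF, from 2.54 ± 0.0188 to 11.95 ± 1.44 FPKM (SD, n = 2; 1.87, SE 0.18, limma adjusted p = 0.000820). It fell without CH to 0.961 ± 0.172 FPKM (-0.85, SE 0.18, adjusted p = 0.0139), which was lost without either culture of 2i+LIF (0.0665 and 0.0662) or replicate 1 of LIF+PD (0.0762). Acvr1, which encodes the type I receptor ALK2, fell without CH (1.79-fold lower, -0.69, SE 0.14, adjusted p = 0.0139, but 0.0542 to 0.0751 without any 1 culture of 2i+LIF or LIF+PD) and without PD (2.10-fold lower, -0.86, SE 0.14, adjusted p = 0.00623). Acvr1 and Acvr1b were thus both lower in LIF+PD and CH+LIF than in 2i+LIF.

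The transcripts of the SMAD proteins and of FOXH1 were present throughout. Smad3 was at 20.15 and 18.93 FPKM in 2i+LIF, 33.50 and 37.76 FPKM in 2i, 43.60 and 30.99 FPKM in LIF+PD, and 15.96 and 16.69 FPKM in CH+LIF. It rose 1.82-fold without LIF (0.83, SE 0.16, limma adjusted p = 0.012, but 0.0532 to 0.0719 without either culture of 2i+LIF or replicate 2 of 2i) and 1.91-fold without CH (0.88, SE 0.16, adjusted p = 0.00774), and it did not pass without PD (-0.25, adjusted p = 0.294). Smad2 (25.42 to 46.30 FPKM), Smad4 (69.77 to 106.2 FPKM) and Foxh1 (52.22 to 68.07 FPKM) passed in none of the comparisons with 2i+LIF, and their differences were 0.35 or less in size. Foxh1 and Smad3 were called lower in CH+LIF than in 2i. Smad2 was called in 2i without replicate 2 of that condition (adjusted p = 0.0446).

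Other targets described for the pathway did not move as a group. Cdkn2b, a gene for a cyclin-dependent kinase inhibitor, rose 3.12-fold in 2i (1.19, SE 0.16, limma adjusted p = 0.00320) and 2.93-fold in LIF+PD (1.12, SE 0.16, adjusted p = 0.00319). Cdkn1a, which encodes p21, fell instead without CH (3.06-fold lower, -1.58, SE 0.09, adjusted p = 9e-05) and without PD (1.73-fold lower, -0.78, SE 0.09, adjusted p = 0.00156).

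Ctgf, a secreted matricellular protein gene, rose without CH (2.11-fold, 1.00, SE 0.24, limma adjusted p = 0.0226) and fell without PD (2.05-fold lower, -0.93, SE 0.24, adjusted p = 0.0299), and without any 1 culture of the groups compared, except replicate 2 of LIF+PD, these calls were lost (adjusted p from 0.0867 to 0.12). Bhlhe40, a transcriptional repressor gene, fell without LIF (4.04-fold lower, -1.73, SE 0.25, adjusted p = 0.00466) and without CH (3.73-fold lower, -1.60, SE 0.25, adjusted p = 0.00494). Fstl1, a gene related in sequence to Fst, rose without LIF (3.56-fold, 1.79, SE 0.12, adjusted p = 0.000201) and without PD (1.49-fold, 0.56, SE 0.12, adjusted p = 0.0145, but 0.0564 to 0.0818 without replicate 1 of 2i+LIF or either culture of CH+LIF), and it was called lower in LIF+PD without replicate 1 of that condition (0.0314). Bhlhe40 was called lower in CH+LIF without either culture of 2i (adjusted p = 0.0275 and 0.0267). In 2i, Fst and Fstl1 therefore differed from 2i+LIF in opposite directions.

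**Figure D4:**
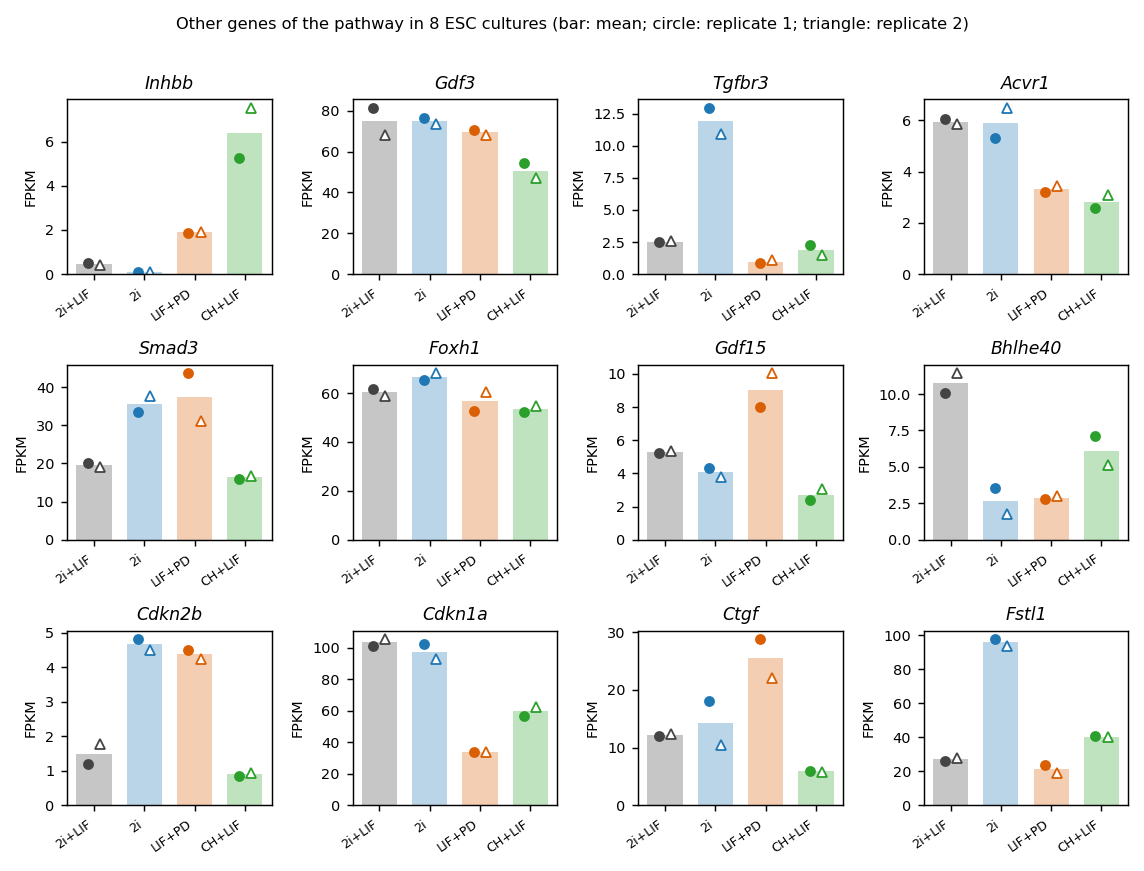
FPKM (linear axis from 0, a separate scale for each gene) of 12 other genes of the pathway in the 4 conditions, with a bar for the mean, a circle for replicate 1 and a triangle for replicate 2. Inhbb is highest in CH+LIF (5.26 and 7.54 FPKM), whereas Fstl1 is highest in 2i (98.0 and 93.84 FPKM) and Foxh1 varies little (52.22 to 68.07 FPKM).

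The genes most like Nodal and Lefty1 were found as those with the smallest root mean square difference in log2(FPKM + 1), after subtraction of each gene's own mean, over the 8 cultures and among 12918 genes that are not members. For Nodal they were Homer3 (0.145), which encodes a postsynaptic scaffold protein, Dzip1 (0.17), a cilium gene, and Plekha2 (0.171). Homer3 was at 24.78 and 18.78 FPKM in 2i+LIF, 36.06 and 34.97 FPKM in 2i, 31.98 and 29.40 FPKM in LIF+PD, and 7.19 and 7.73 FPKM in CH+LIF. Its order of conditions was that of Nodal, which the choice by likeness over these same cultures favours. The other members were farther from Nodal, from 0.585 for Skil to 1.36 for Lefty1.

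Among the genes most like Lefty1 were Naaa (0.744), which encodes a lysosomal amidase, and Cd37 (1.01), while Lefty2 was at 0.594. Naaa was at 4.50 and 2.97 FPKM in 2i+LIF, 48.72 and 16.43 FPKM in 2i, 16.26 and 4.70 FPKM in LIF+PD, and 0.554 and 1.00 FPKM in CH+LIF. Naaa was also higher in replicate 1 of LIF+PD, which its choice by likeness to Lefty1 over these same cultures favours.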

How the data were processed

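RNA of 8 mouse ESC cultures was sequenced from a single end. The submitters' processing notes name TopHat2, Cufflinks and Cuffdiff and the mm10 build. The methods state Ensembl 75 annotation. The methods describe rRNA-depleted libraries, the sample records polyA RNA. For each culture, gene-level FPKM with bounds was deposited, scaled by transcript length and library size, and replicates were not pooled. The gene counts that the authors tested with DESeq2 were not used here. FPKM carries no read number, so no counting error is given, and depth was estimated only relative to 1 culture. The methods describe strand-specific counting of reads for those gene counts, but whether strand was used for FPKM is not given in the sources used here.

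Values were joined by Ensembl identifier, with 22 repeated entries summed. Expression was tested as log2(FPKM + 1), a scale that understates the change of low genes, with limma 3.58.1 (R 4.3.3, mean-variance trend) in 1 fit of the 12927 genes that reached 1 FPKM in 2 or more cultures. The fit had 4 residual degrees of freedom, and p-values were adjusted by the Benjamini-Hochberg method over all genes within each comparison, with a threshold of 0.05. With 2 cultures against 2, an exact permutation test cannot reach that threshold. The procedure was tested on simulated data. Sequences were taken from RefSeq (GRCm38.p6), shared windows from GENCODE M21 transcripts, and figures were drawn with matplotlib 3.10.9 in Python 3.11.15.

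The members and lists were chosen with earlier results of these data known. Values are given for the 9 members, for pathway genes called in at least 2 of the 3 comparisons with 2i+LIF, for Foxh1, Smad2, Smad3, Smad4, Gdf3 and Inhbb, and for the 3 genes nearest to Nodal and to Lefty1, apart from some results not reported here. Other genes were named after their values had been seen. Alternatives were other pseudocounts, filters, scalings, samples in the fit, a fit without the trend, a replicate block, the sum of Lefty1 and Lefty2, the omission of each culture, and, chosen after seeing the data, the omission of LIF+PD.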

Additional observations from a re-analysis of the deposited data

How the results depend on the processing

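No alternative reversed a called difference. Of 54 gene-comparison pairs, 18 were called, of which 8 were called under every alternative (Nodal in all comparisons but LIF+PD against 2i+LIF and against 2i, Acvr1b in LIF+PD against 2i+LIF and 2i, Fst in 2i against 2i+LIF and CH+LIF against 2i), 10 were lost under at least 1, and 15 of the 36 others were called under at least 1. Leaving out 1 culture at a time, the number of the 9 genes called ranged from 3 to 5 (4 with all cultures) for 2i against 2i+LIF, 1 to 3 (2) for LIF+PD and 1 to 4 (2) for CH+LIF against 2i+LIF, was 3 (3) for LIF+PD against 2i, and ranged from 2 to 6 (5) for CH+LIF against 2i and 1 to 5 (2) for CH+LIF against LIF+PD. For LIF+PD against 2i+LIF it was 1 without a filter and 1 without the trend. For CH+LIF against 2i+LIF it was 1 under TPM scaling, 5 with only the 2 groups in the fit and 4 without LIF+PD. With only the 2 groups in the fit it was 1 for LIF+PD against 2i and 1 for CH+LIF against LIF+PD. Over all genes tested, the deviations of same-numbered cultures were weakly correlated between conditions (-0.0283 to 0.0925). Such correlations cannot decide whether replicate numbers pair the cultures for single genes. With the replicate block, the counts were 4, 3 and 3 for 2i, LIF+PD and CH+LIF against 2i+LIF, 4 for LIF+PD against 2i, 6 for CH+LIF against 2i and 3 for CH+LIF against LIF+PD. It added calls of Skil in LIF+PD against 2i+LIF, 2i and CH+LIF (adjusted p = 0.00797, 0.0238 and 0.0151), of Smad7 in LIF+PD and CH+LIF against 2i+LIF (0.0136 and 0.0188) and of Lefty2 in CH+LIF against 2i (0.0222), and lost that of Nodal in LIF+PD against 2i+LIF (0.0581). TPM scaling moved the median of all genes by 0.12 and 0.17 (LIF+PD and CH+LIF against 2i+LIF) and by 0.12 (CH+LIF against 2i). The number of all genes called fell from 2408 to 1500 (2i against 2i+LIF) and from 3089 to 1808 (CH+LIF against 2i) with only the 2 groups in the fit, and when a culture was left out it was as low as 1167 for 2i, 1687 for LIF+PD and 1520 for CH+LIF against 2i+LIF. The number of other pathway genes that rose or fell, with 1 culture left out, was 4 to 7 and 1 (2i), 3 to 10 and 2 to 5 (LIF+PD), and 2 to 3 and 2 to 8 (CH+LIF against 2i+LIF). In 2i, 5 rose with a filter of 5 FPKM and 2 fell with a pseudocount of 0.1 or no filter, and in CH+LIF 5 rose under TPM scaling. Of 21 calls of named pathway genes against 2i+LIF, 11 were kept in every alternative. With 2 cultures per condition, a culture left out leaves its partner assumed to vary like the other conditions. FPKM carries no depth, so that the counting error of low genes such as Acvr2b cannot be given.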

Other observations

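Among the markers of the later epiblast, Otx2, a homeobox factor of the post-implantation epiblast, was at 2.44 and 1.80 FPKM in 2i+LIF, 13.19 and 16.38 FPKM in 2i, 2.15 and 2.11 FPKM in CH+LIF, and 50.34 and 49.22 FPKM in LIF+PD. Its order of conditions differed from that of Nodal in placing LIF+PD above 2i. The CH+LIF and 2i+LIF cultures overlapped for Otx2, whereas for Nodal those of CH+LIF were lower. Dnmt3b, a DNA methyltransferase gene and the most abundant of the 4 markers on average, had another order, at 68.79 and 65.06 FPKM in CH+LIF, 42.50 and 66.55 FPKM in 2i, 41.87 and 50.86 FPKM in LIF+PD, and 35.02 and 33.44 FPKM in 2i+LIF. Pou3f1 was highest in LIF+PD (3.52 and 3.58 FPKM, against at most 1.80 FPKM elsewhere), and Fgf5 stayed below 1 FPKM in all cultures. Gsc, a homeobox target of Nodal signalling in the gastrula, was at 7.71 and 6.26 FPKM in 2i+LIF and 6.77 and 6.10 FPKM in LIF+PD, against 1.53 and 0.175 FPKM in 2i and 0.654 and 0.499 FPKM in CH+LIF. Gsc was therefore low in 2i, where Lefty1 was high. Alox5ap, the protein-coding gene with the largest gap between the LIF+PD cultures after Tnpo1, was at 127 and 2.62 FPKM there, 63.8 and 4.19 FPKM in 2i+LIF, 38.3 and 3.25 FPKM in CH+LIF, and 5.02 and 107 FPKM in 2i, with replicate 2 the higher in 2i, unlike Lefty1 and Lefty2. These genes were named after their values had been seen.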
